A study of Rattus norvegicus with 6 samples.

Results

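The mitochondrial ribosome is built from a large and a small subunit, and its proteins are encoded by nuclear genes named MRPL (large subunit) and MRPS (small subunit). The genes described here were those whose Ensembl identifier carried, in the symbol column of either of the authors' differential expression tables, a symbol beginning with MRPL or MRPS and a number. There were 76 of them among the 26319 genes of the count table, 48 of the large and 28 of the small subunit. All 76 passed the filter on low counts, which left 13426 genes for testing.

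Mitochondrial ribosomes translate the few messenger RNAs of the mitochondrial genome, which encode core subunits of the respiratory chain and of ATP synthase. The ribosomal proteins are made in the cytosol, imported, and assembled on ribosomal RNAs that the mitochondrial genome encodes, so the particle draws on both genomes. Some of its proteins have a counterpart in bacterial ribosomes and others were acquired in the mitochondrial lineage. In the kidney, proximal tubule cells are known for their many mitochondria, while podocytes hold fewer of them.

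Polyadenylated RNA from isolated rat glomeruli, in which the kidney filters blood, was sequenced in 6 libraries, 2 in each of 3 groups of Sprague Dawley rats. The WT libraries came from wild-type rats of 20.4 and 21.9 weeks (replicates 1 and 2), whose treatment is also labelled vehicle. The AT1R Tg rats carried an AT1R transgene (AT1R is the type 1 receptor of angiotensin II) and received either vehicle, at 20.4 and 17.4 weeks, or AC1903, a small molecule that blocks the TRPC5 channel, at 23.0 and 20.4 weeks. The labels do not name the promoter of the transgene, the sex of the rats or the dose and duration of treatment, and the title places the study in progressive kidney disease. The replicates of each group differed in age by their labels. The sources used here do not say whether rats were pooled.

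Library totals were 12325515 to 36026772 expected counts, with both WT libraries above all transgenic ones. Reads in the 76 genes made up 0.175% to 0.205% of each total, or 22085 to 69700 expected counts. Podocyte markers, among them NPHS1 (nephrin), were abundant in every library, with a summed level over 12 genes of 9584 to 18000 CPM (counts scaled by library size), so markers that define the labelled tissue were present. Vehicle replicate 2 stood apart: it held the lowest podocyte sum, the highest proximal tubule sum and the highest share of counts from mitochondrially encoded genes, 40.5% against 22.3% to 34.0% in the other 5. Values without that library are given where they moved.

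Transcripts of the mitochondrial ribosomal proteins were present at moderate levels. Levels are CPM with TMM scaling (trimmed mean of M values) and no correction for transcript length, so they compare libraries for 1 gene and not genes with each other. The mean over the 6 libraries was under 5 CPM for 2 members, MRPS10 at 1.37 CPM and MRPS6 at 2.75 CPM, and their lowest counts were 13 and 20. The 48 large subunit genes summed to 1167 and 1263 CPM in WT, to 1278 and 1424 CPM with vehicle, and to 1221 and 1167 CPM with AC1903. The 28 small subunit genes summed to 610 and 627 CPM in WT, to 673 and 786 CPM with vehicle, and to 617 and 605 CPM with AC1903. On this scale both sums were highest in the vehicle libraries, with no overlap with either other group. WT and AC1903 overlapped for each subunit. As a raw share of all counts, both subunits together made up 0.198% and 0.194% in WT and 0.205% and 0.191% with vehicle. With AC1903 the share was 0.179% and 0.175%. By that measure vehicle replicate 2 lay below both WT libraries. Of counts without mitochondrially encoded genes, the share was 0.254% and 0.270% in WT and 0.274% and 0.321% with vehicle. With AC1903 it was 0.271% and 0.258%, so vehicle was again highest, replicate 1 by little. The ratio of the sums, large to small, lay between 1.81 and 2.01 in the 6 libraries, lowest in vehicle replicate 2.

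Gene by gene, vehicle replicate 2 was the highest library for most members. Relative to the WT mean, the median log2 level of the large subunit genes was 0.10 and 0.23 in the vehicle libraries and 0.04 and -0.07 in the AC1903 libraries. For the small subunit the same medians were 0.12 and 0.30 in vehicle and -0.07 and -0.06 in AC1903. The pooled standard deviation between replicates of these medians was 0.0825 for the large and 0.0759 for the small subunit (3 groups of 2). Vehicle replicate 2 held the highest value of 47 of the 76 genes, vehicle replicate 1 of 12, WT replicate 2 of 8, and the other 3 libraries together of the rest. Of all genes tested, 21.1% were highest in vehicle replicate 2.

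**Figure D1:**
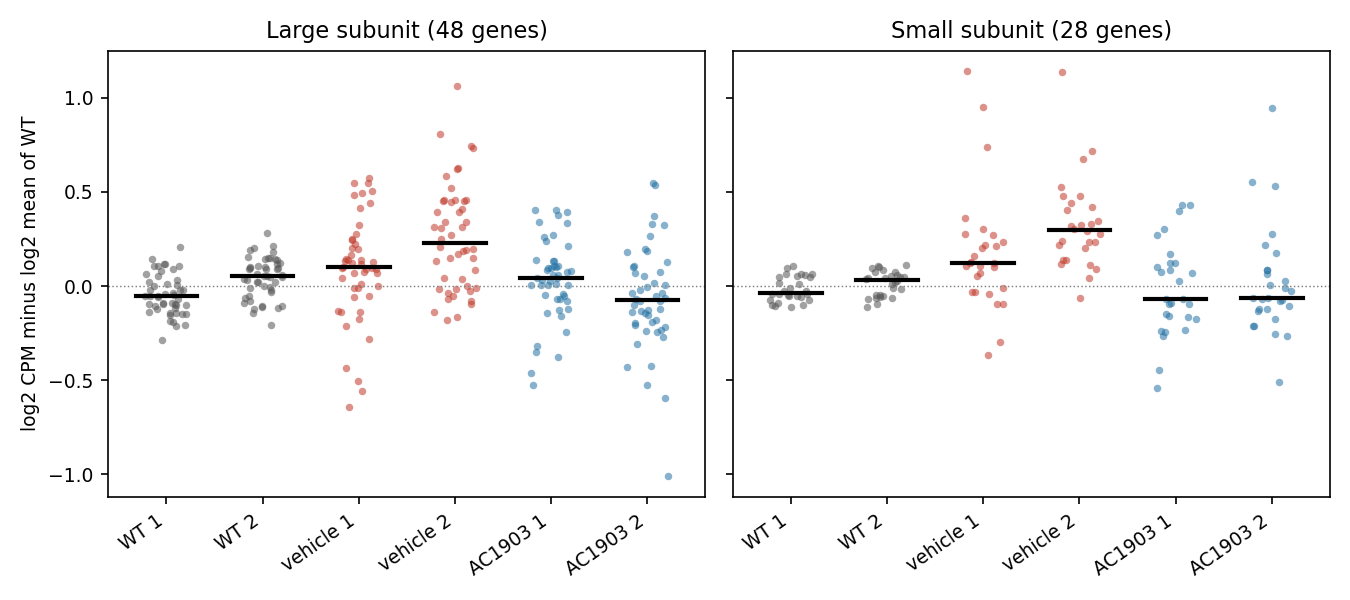
Each point is 1 mitochondrial ribosomal protein gene in 1 library, plotted as log2 CPM minus the log2 mean of its WT values, for the 48 large subunit genes (left) and 28 small subunit genes (right); black bars are medians. The medians of the vehicle libraries are the highest in both panels, at 0.10 and 0.23 for the large and 0.12 and 0.30 for the small subunit, and single genes spread on both sides of them.

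The comparison of AT1R Tg vehicle with WT asks how glomeruli of the transgenic rats differ from those of wild-type rats. In it 64 of 76 genes (84.2%) had a higher fitted level in vehicle, where 46.6% of all genes tested did. The median log2 change was 0.22 over the 76 genes, 0.17 over the large and 0.23 over the small subunit, against -0.03 over all genes tested, and single changes ran from -0.26 to 0.95. Small subunit genes were higher in 27 of 28 cases, the exception being MRPS5, and large subunit genes in 37 of 48. Changes were small in size: 67 of 76 lay within 0.5 on the log2 scale, against 75.9% of all genes.

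No single gene of the 76 passed edgeR's quasi-likelihood test at an adjusted p of 0.05, where 0.0745% of all genes did. At an unadjusted p under 0.05, edgeR placed 7 genes (9.21%) higher in vehicle, MRPL2, MRPL15, MRPL16, MRPL50, MRPS25, MRPS34 and MRPS36, and none lower, where 8.57% of all genes were higher and 3.35% lower at that level, so the share higher was close to the background. DESeq2 called 1 gene, MRPS34, against 4.22% of all genes with an adjusted p, and the authors' deposited table also called MRPS34 alone among the 76, with 4.42% of its genes called. limma-voom called none of them. Both vehicle libraries lay above both WT libraries in 37 of 76 genes (48.7%; 18 large, 19 small), where 20.6% of all genes did, and below both in 1, MRPL49, where 23.4% of all genes did. With 2 libraries a group the smallest p that a permutation test can give is 0.33.

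Markers of the proximal tubule lay on the same side. Of 17 such markers 16 had a higher fitted level in vehicle than in WT, with a median log2 change of 1.37. DESeq2 called 12 of them higher, where it called 4.22% of all genes in either direction, and edgeR called none of them. Their summed level was 1485 to 2287 CPM in WT, 3200 to 6168 CPM in vehicle and 3383 to 3392 CPM in AC1903 libraries, and none of the 17 was at 0 in any library. The brush border and transport genes SLC34A1, SLC5A2 and CUBN were among them. Their part in the result was not tested. With proximal tubule level as covariate the count of higher mitochondrial ribosomal protein genes was 53 in place of 64, and the small subunit median 0.07 in place of 0.23. The large subunit median was 0.20 in that fit. Relative to the WT mean, the median of these markers was -0.40 to 0.40 in WT and 0.87 to 1.87 in the transgenic libraries. Tubule level and group therefore cannot be told apart in comparisons with WT under this covariate. Between vehicle, at 0.87 and 1.87, and AC1903, at 0.95 and 0.93, the level overlapped, and that comparison still rests on 2 libraries a group. Without vehicle replicate 2 the count of higher genes was 54, with medians of 0.10 for the large and 0.12 for the small subunit. Markers of other glomerular and immune cells mostly had lower fitted levels in vehicle. Glomerular endothelial markers were lower in 10 of 10, 9 of them without overlap, at a median of -0.37, with a summed level of 9300 to 9353 CPM in WT and 6550 to 7041 CPM in vehicle libraries. Podocyte markers were lower in 10 of 12, at a median of -0.22, and macrophage markers in 10 of 10, at -0.28. Only 4 of the 12 and 2 of the 10 were lower without overlap, where 23.4% of all genes were. Relative to the WT mean, the podocyte median was 0.17 in vehicle replicate 1 and -0.69 in replicate 2. The macrophage median was -0.36 and 0.36 in the WT libraries themselves. edgeR called none of the endothelial, podocyte and macrophage markers, DESeq2 called 1 endothelial marker, and their part in the result was not tested. In bulk tissue, fewer cells of a type and less RNA per cell cannot be told apart.

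Among small subunit genes, MRPS34 (ENSRNOG00000015479), a protein specific to the mitochondrial ribosome whose loss in people causes a Leigh-type mitochondrial disease, had the largest difference. Its level was 20.1 and 17.6 CPM in WT, 31.4 and 41.4 CPM with vehicle, and 25.4 and 27.6 CPM with AC1903. The 3 groups did not overlap: WT was lowest, vehicle highest and AC1903 between them. The vehicle minus WT log2 change was 0.95 ± 0.19 (SE), with an adjusted p of 0.178 in edgeR's quasi-likelihood test. DESeq2 gave 0.97 with an adjusted p of 0.00654, and the authors' deposited table gave 0.97 with an adjusted p of 0.00535. The change was 0.42 with proximal tubule level as covariate and 0.74 without vehicle replicate 2, and neither fit called it.

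MRPS25, another protein with no bacterial counterpart, was measured at 32.9 and 30.1 CPM in WT, 38.2 and 51.8 CPM with vehicle, and 32.1 and 35.6 CPM with AC1903. Only the vehicle libraries were set apart, above all 4 others, and replicate 2 was well above replicate 1. Its vehicle minus WT log2 change was 0.51 ± 0.19 (SE; edgeR adjusted p = 0.323), and it was 0.0088 with the proximal tubule covariate and 0.28 without vehicle replicate 2. MRPS36, which carries a small subunit name but is known as a component of the oxoglutarate dehydrogenase complex, stood at 26.8 and 28.9 CPM in WT, 32.4 and 44.5 CPM with vehicle, and 33.6 and 28.4 CPM with AC1903. Vehicle lay above WT, and AC1903 overlapped both groups. The log2 change was 0.46 ± 0.20 (SE; edgeR adjusted p = 0.411), with 0.21 under the same covariate and 0.22 without that library. MRPS21 had WT values of 29.6 and 27.1 CPM, vehicle values of 34.9 and 35.5 CPM and AC1903 values of 29.7 and 30.1 CPM, and here the vehicle libraries agreed closely with each other, at a log2 change from WT of 0.31 ± 0.16 (SE; edgeR adjusted p = 0.492), or 0.18 with the covariate.

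In the large subunit, MRPL15 (ENSRNOG00000008566), MRPL16 (ENSRNOG00000021005) and MRPL2 (ENSRNOG00000018057), all of them counterparts of bacterial ribosomal proteins, had the largest differences. MRPL15 was at 25.4 and 21.6 CPM in WT, 31.9 and 48.9 CPM with vehicle, and 30.5 and 34.3 CPM with AC1903. All 4 transgenic libraries lay above both WT libraries, and vehicle replicate 2 above every other. The vehicle minus WT log2 change was 0.78 ± 0.23 (SE; edgeR adjusted p = 0.205), and it was 0.02 with the proximal tubule covariate and 0.44 without vehicle replicate 2. MRPL16 was at 22.2 and 18.2 CPM in WT, 29.4 and 33.5 CPM with vehicle, and 26.6 and 29.2 CPM with AC1903. Here too WT was lowest without overlap, and the vehicle minus WT change was 0.64 ± 0.18 (SE; edgeR adjusted p = 0.203), or 0.23 with the covariate. MRPL16 overlaps Stx3 in the RefSeq gene table for the assembly GRCr8, and reads of overlapping genes may be divided between them.

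MRPL2, a protein that binds ribosomal RNA close to the peptidyl transferase centre, was high in vehicle alone. Its levels were 14.0 and 13.9 CPM in WT, 20.7 and 23.4 CPM with vehicle, and 15.3 and 13.4 CPM with AC1903. WT and AC1903 overlapped, and both vehicle libraries lay above all 4. The change was 0.66 ± 0.19 (SE) for vehicle minus WT (edgeR adjusted p = 0.205) and -0.62 ± 0.20 for AC1903 minus vehicle (edgeR adjusted p = 0.549). With the proximal tubule covariate these were 0.53 and -0.57. MRPL50, which is specific to mitochondria, was at 20.2 and 15.2 CPM in WT, 25.6 and 27.1 CPM with vehicle, and 22.2 and 19.9 CPM with AC1903. Its vehicle values were above the rest and its WT libraries differed more from each other than the vehicle ones did. Vehicle minus WT was 0.57 ± 0.20 (SE; edgeR adjusted p = 0.286), or 0.19 with the covariate.

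Few genes lay lower in vehicle than in WT, 11 of them in the large subunit and 1 in the small. The lowest change was that of MRPL46, at 21.0 and 18.1 CPM in WT, 13.2 and 19.3 CPM with vehicle, and 19.6 and 18.2 CPM with AC1903. Vehicle replicate 1 was alone in being low, and replicate 2 lay within the WT range. MRPL46 differed by -0.26 ± 0.23 (SE; edgeR adjusted p = 0.717), MRPL42 by -0.20 ± 0.26, MRPL9 by -0.18 ± 0.20 and MRPL17 by -0.08 ± 0.16, so each SE was about as large as the difference or larger. With the proximal tubule covariate the first 3 differed by -0.88, -0.80 and -0.44. MRPL49 was the member whose vehicle libraries both lay below WT, yet at 52.1 and 49.6 CPM against 52.4 and 52.4 CPM the distance was slight (log2 change -0.04 ± 0.15).

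**Figure D2:**
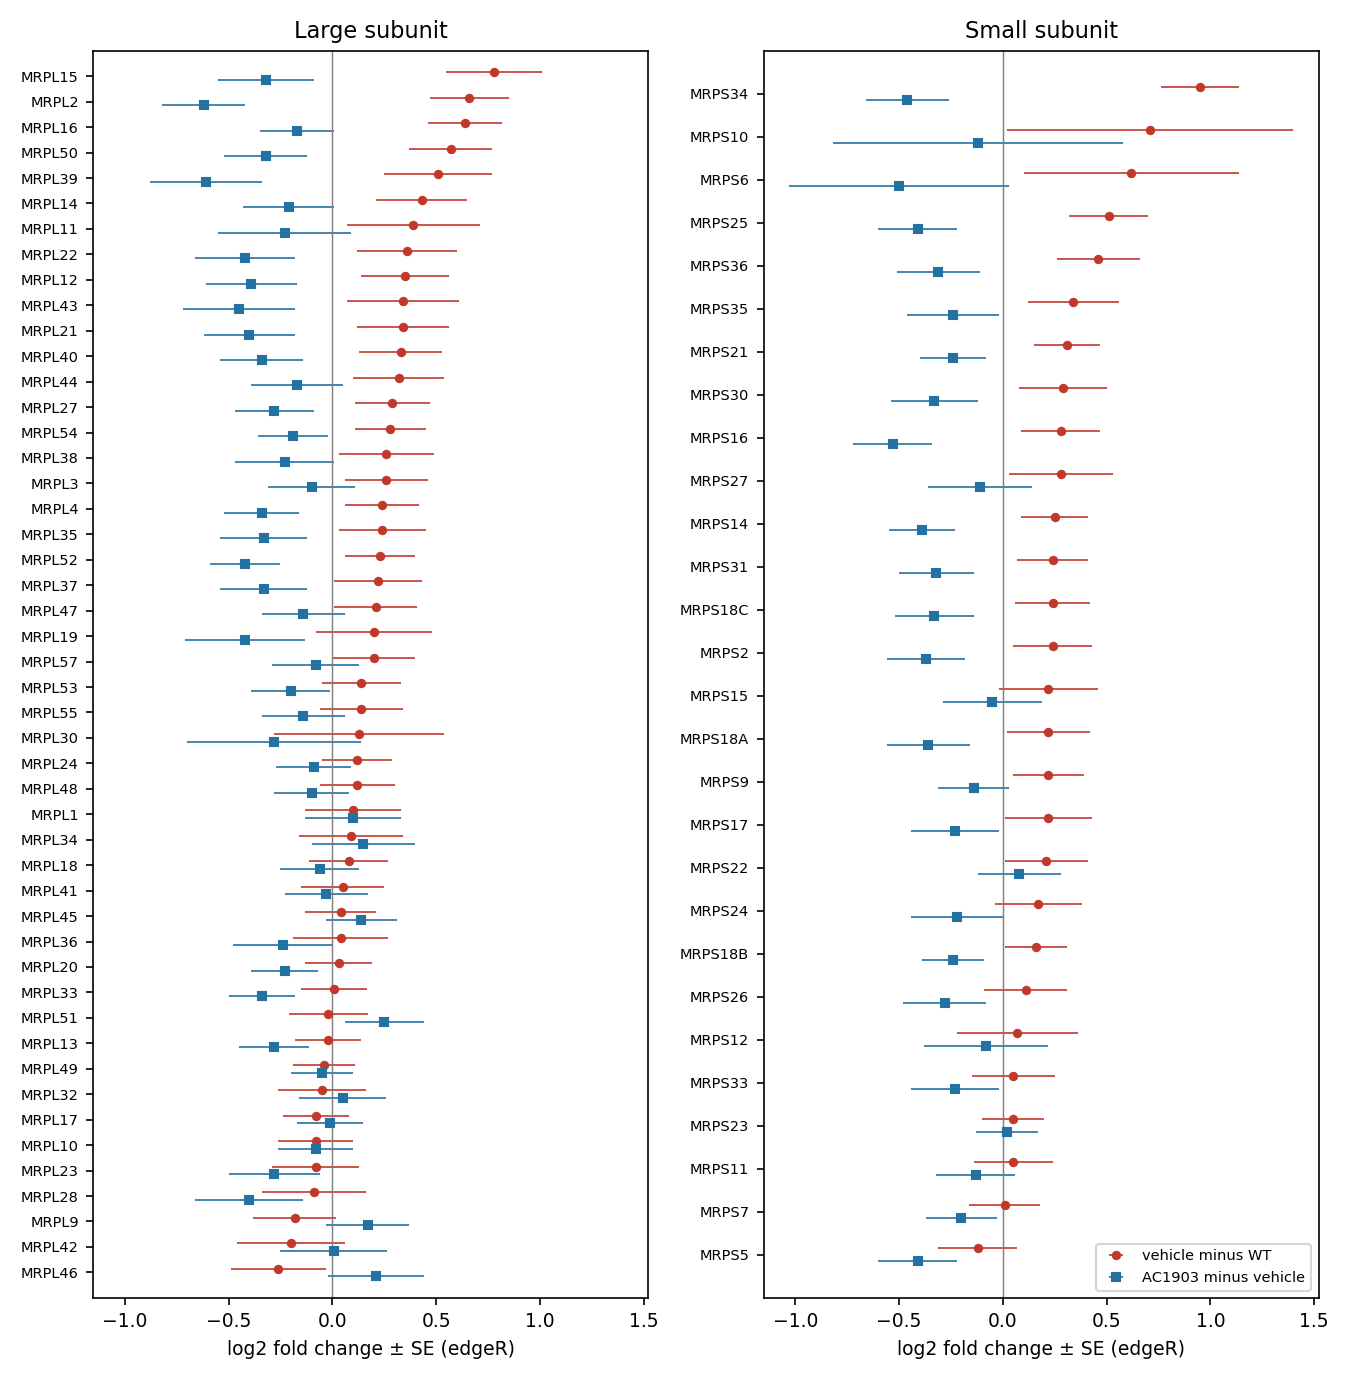
Points give the log2 fold change of each gene from edgeR's fit with its standard error, for vehicle minus WT (red circles) and AC1903 minus vehicle (blue squares), sorted within each subunit by the former. Red points lie above 0 for 64 of 76 genes and blue points below 0 for 66; the comparisons share the vehicle libraries, and no point passed the adjusted threshold.

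AC1903 against vehicle asks what the inhibitor changed in the transgenic rats, and this comparison uses the same vehicle libraries as the one before. In it 66 of 76 genes (40 large, 26 small) had a lower fitted level with AC1903, where 52.1% of all genes tested did. The median log2 change was -0.23 over the 76 genes, -0.22 for the large and -0.24 for the small subunit, against -0.02 over all genes, in a range of -0.62 to 0.25. Of the 76, 72 lay within 0.5 on the log2 scale, against 78.2% of all genes. Without vehicle replicate 2 the count of lower genes was 58, and the large subunit median was -0.11.

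edgeR called none of the 76, as it called 0% of all genes, that is, none. At an unadjusted p under 0.05, 5 genes (6.58%) were lower by edgeR, MRPL2, MRPL52, MRPS14, MRPS16 and MRPS34, and none higher, where 2.77% of all genes were lower and 5.35% higher. DESeq2 called none of them, with 0.423% of all genes called, and limma-voom called none either. The authors' deposited table called none, with 0.378% of its genes called. Both AC1903 libraries lay below both vehicle libraries in 37 genes (48.7%; 21 large, 16 small), where 18.4% of all genes did, and above both in 1, MRPL45, where 19.9% of all genes did. Proximal tubule markers were again on the same side, 17 of 17 with a lower fitted level and a median of -0.41. Only 4 of the 17 were lower without overlap, where 18.4% of all genes were, and edgeR and DESeq2 called none. Relative to the WT mean, their median was 0.87 and 1.87 in the vehicle libraries and 0.95 and 0.93 in the AC1903 libraries. Only vehicle replicate 2 was thus above the AC1903 libraries. The part of these markers in the result was not tested. With their level as a covariate 61 of the 76 were lower. Macrophage markers had a higher fitted level with AC1903 in 10 of 10, at a median of 1.29, with a summed level of 212 to 283 CPM in vehicle and 346 to 864 CPM in AC1903 libraries. Lymphocyte markers were higher in 4 of 4, at a median of 1.21, and summed to 10.1 to 10.7 CPM and 22.7 to 27.7 CPM, with CD79A at 0 in vehicle replicate 1. edgeR called none of either list, while DESeq2 called 2 macrophage markers and 1 lymphocyte marker. Glomerular endothelial markers were higher in 9 of 10, at a median of 0.25. The part of these cells in the result was not tested.

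MRPS16, a counterpart of a bacterial small subunit protein and a known gene of inherited combined respiratory chain deficiency, was at 28.2 and 29.95 CPM in WT, 30.2 and 40.5 CPM with vehicle, and 24.6 and 24.1 CPM with AC1903. AC1903 was the lowest group, below WT as well, and the vehicle libraries were far apart. The AC1903 minus vehicle log2 change was -0.53 ± 0.19 (SE; edgeR adjusted p = 0.589), and -0.32 without vehicle replicate 2. MRPS14 was at 33.3 and 36.1 CPM in WT, 41.8 and 40.8 CPM with vehicle, and 33.0 and 29.9 CPM with AC1903. Its groups did not overlap, with the vehicle libraries close together, and AC1903 minus vehicle was -0.39 ± 0.16 (SE; edgeR adjusted p = 0.606).

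MRPL52, a large subunit protein specific to mitochondria, was at 32.9 and 35.1 CPM in WT, 37.3 and 42.2 CPM with vehicle, and 27.3 and 32.1 CPM with AC1903. The order was AC1903, WT, vehicle without overlap, at a log2 change of -0.42 ± 0.17 (SE; edgeR adjusted p = 0.606) for AC1903 minus vehicle. MRPL39 was measured at 7.75 and 7.10 CPM in WT, 10.5 and 10.7 CPM with vehicle, and 7.74 and 6.16 CPM with AC1903, with the vehicle libraries above all others. Its change was -0.61 ± 0.27 (SE; edgeR adjusted p = 0.612), and its lowest count was 77. MRPS34, given above, differed between AC1903 and vehicle by -0.46 ± 0.20 (SE; edgeR adjusted p = 0.611), or -0.25 without vehicle replicate 2, and the authors' deposited table gave -0.46 with an adjusted p of 0.987.

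On the other side, 10 genes had a higher fitted level with AC1903. MRPL45, which helps to hold the ribosome at the inner membrane next to the tunnel exit, was at 23.9 and 27.1 CPM in WT, 26.8 and 25.5 CPM with vehicle, and 27.2 and 30.6 CPM with AC1903. Its AC1903 values lay just above the others, and the change from vehicle was 0.14 ± 0.17 (SE; edgeR adjusted p = 0.825). MRPL51 differed by 0.25 ± 0.19. Both were lowest without AC1903 replicate 2, in ranges of 0.02 to 0.19 for MRPL45 and 0.04 to 0.35 for MRPL51 with 1 library left out. MRPS22, a gene of inherited mitochondrial disease, differed by 0.08 ± 0.20. MRPS23 was nearly level in all 6 libraries, between 44.9 and 51.0 CPM.

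**Figure D3:**
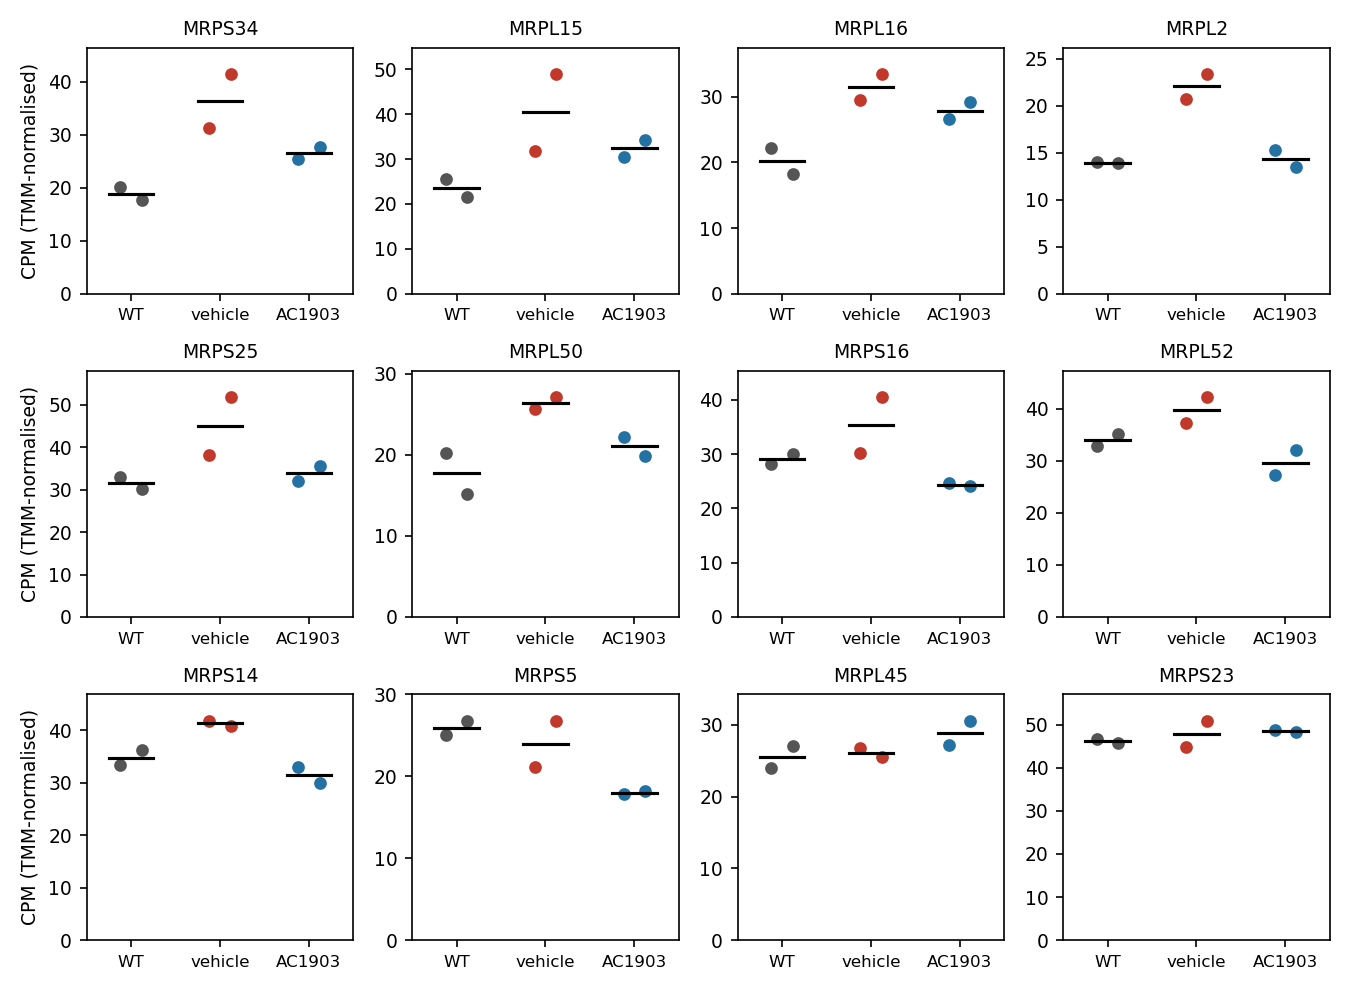
Levels of 12 mitochondrial ribosomal protein genes in TMM-normalised CPM for the 2 libraries of each group (points) with the group mean (bar); the axes begin at 0 and differ in height. MRPS34 stands in the order WT, AC1903, vehicle without overlap, from 17.6 to 41.4 CPM, MRPL2 is high only in vehicle at 20.7 and 23.4 CPM, and MRPS5 is lowest in AC1903 at 17.8 and 18.2 CPM.

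Set against WT, the AC1903 group showed no common direction. Of 76 genes 43 were lower and 33 higher, where 49.8% of all genes were lower, and the medians were -0.00947 for the large and -0.03 for the small subunit. edgeR called none, against 0.0372% of all genes, DESeq2 called none, against 1.28%, and limma-voom none. At an unadjusted p under 0.05 edgeR had 1 gene lower, MRPS5, against 4.2% of all genes, and 2 higher, MRPL16 and MRPS34, against 6.92%. Both AC1903 libraries were below both WT libraries in 19 genes (25%), close to the 23.5% of all genes, and above both in 11 (14.5%), where 24.2% of all genes were. Proximal tubule markers were higher than WT in 15 of 17, at a median of 0.92, and all 15 were without overlap. Macrophage markers were higher than WT in 9 of 10, at a median of 0.96. Only 4 of the 10 were higher without overlap, where 24.2% of all genes were. Their summed level overlapped, at 235 and 395 CPM in WT and 345.5 and 864.3 CPM with AC1903. The part of either list was not tested. A median near 0 with this number of libraries does not show that the groups were alike.

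MRPS5, a counterpart of a bacterial small subunit protein, was at 25.1 and 26.8 CPM in WT, 21.1 and 26.7 CPM with vehicle, and 17.8 and 18.2 CPM with AC1903. AC1903 was the lowest group and did not overlap with either other, while vehicle and WT overlapped. Its AC1903 minus WT log2 change was -0.53 ± 0.19 (SE; edgeR adjusted p = 0.398). Against the same WT libraries MRPL16 differed by 0.46 ± 0.18 (edgeR adjusted p = 0.417) and MRPS34 by 0.49 ± 0.20 (edgeR adjusted p = 0.423), and with the proximal tubule covariate by 0.20 and 0.15. MRPL28, at 22.7 and 26.8 CPM in WT and 17.1 and 18.3 CPM in AC1903, differed by -0.48 ± 0.26 (edgeR adjusted p = 0.504), and MRPL33 by -0.33 ± 0.16 (edgeR adjusted p = 0.473). With the covariate these were -0.77 and -0.13. MRPS10 had a fitted change of 0.59 ± 0.69, which its low counts do not resolve.

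Genes with special places in the particle varied within these limits. The stalk that recruits translation factors is formed by MRPL10 and MRPL12, next to MRPL11 at its base. MRPL12 was at 37.5 and 46.4 CPM in WT, 44.7 and 62.4 CPM with vehicle, and 44.8 and 36.8 CPM with AC1903, highest in vehicle replicate 2 and otherwise overlapping. MRPL12 differed by 0.35 ± 0.21 (log2, SE) between vehicle and WT, MRPL11 by 0.39 ± 0.32 and MRPL10 by -0.08 ± 0.18, so the stalk genes took both signs. MRPL3, near the catalytic centre, differed by 0.26 ± 0.20, MRPL44, related to a ribonuclease III fold, by 0.32 ± 0.22 and MRPL41 by 0.05 ± 0.20. MRPS12, of the decoding centre, was at 8.71 and 14.8 CPM in the vehicle libraries, on either side of WT at 11.7 and 10.8 CPM.

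The paralogs MRPS18A, MRPS18B and MRPS18C are related to 1 bacterial protein, of which MRPS18C alone is counted here as the counterpart, and MRPS18A, like MRPS30, sits in the large subunit in spite of its name. MRPS18C was at 19.5 and 22.4 CPM in WT, 26.9 and 22.6 CPM with vehicle, and 19.6 and 19.8 CPM with AC1903. In all 3 paralogs vehicle had the highest mean: vehicle minus WT was 0.22 ± 0.20 for MRPS18A, 0.16 ± 0.15 for MRPS18B and 0.24 ± 0.18 for MRPS18C. The AC1903 libraries lay below the vehicle libraries for each, by -0.36, -0.24 and -0.33 in that order. MRPS30 differed by 0.29 ± 0.21 between vehicle and WT and by -0.33 ± 0.21 between AC1903 and vehicle. Counting MRPS30 and MRPS18A in the large subunit and leaving out MRPS36 gave vehicle minus WT medians of 0.20 for the large and 0.22 for the small subunit.

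Genes with and without a bacterial counterpart had like medians. The 45 genes with a bacterial counterpart had a median vehicle minus WT change of 0.21, and the 31 without a certain one 0.22. Between AC1903 and vehicle both medians were -0.23. Near-identical copies and overlapping genes may bear on single values: 19 of the 75 genes with an entry in the RefSeq table for GRCr8 overlap another gene. MRPL36 overlaps Ndufs6, and MRPL47 overlaps Ndufb5 and Actl6a, all on the opposite strand. MRPS6 overlaps Slc5a3 on the same strand, and MRPL43 overlaps Twnk with the strand not known. The kit was stranded, but the strand setting of the counting is not named, so which overlaps shared reads is not known. MRPL24, MRPL30, MRPL36, MRPL47 and MRPS7 had fractional expected counts in at least 1 library, as the authors' counting gives where reads are shared between genes.

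Promoters of genes for mitochondrial proteins are known to hold sites for the factors NRF1, for ETS proteins such as GABPA, and for YY1. RefSeq sequences for GRCr8, from 250 bases before to 50 after the start, were given for 62 of the 76 genes, and MRPS34, MRPL15 and MRPL16 were not among them. Letters were searched on both strands: TGCGCA for the NRF1 core, CCGGAAG for ETS and AAGATGGC for YY1, none of which is contained in another. The NRF1 core stood in 15 of 62 promoters (24.2%), where 7.24% of all 33469 promoters of that length held it. ETS letters stood in 20 (32.3%) against 8.75% of all, and YY1 letters in 15 (24.2%) against 3.17% of all. At least 1 of the 3 was in 38 of the 62. Letters of other common elements were nearer to all promoters: GGGCGG (SP1) in 48.4% against 33.1%, CCAAT in 40.3% against 37.5%, and TATAAA in 11.3% against 14.2%. The median GC content was 55.7% against 51.7% in all promoters, and a match of letters is a description and not a bound site.

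4 promoters are shown, with matches to the first 3 motifs in capitals, read 5′ to 3′ on the strand of the gene. MRPL50 and MRPL52 were among the genes of smallest p above, and MRPS18A and MRPS18B are the paralogs whose promoters each hold all 3 motifs. MRPL50 (chr5:68668038-68668337, minus strand) has the YY1 letters near its start, and MRPL52 (chr15:31852686-31852985, plus strand) the ETS letters at 2 places. MRPS18A (chr9:22367331-22367630, minus strand) and MRPS18B (chr20:2842756-2843055, plus strand) hold NRF1, ETS and YY1 letters in that order.
MRPL50: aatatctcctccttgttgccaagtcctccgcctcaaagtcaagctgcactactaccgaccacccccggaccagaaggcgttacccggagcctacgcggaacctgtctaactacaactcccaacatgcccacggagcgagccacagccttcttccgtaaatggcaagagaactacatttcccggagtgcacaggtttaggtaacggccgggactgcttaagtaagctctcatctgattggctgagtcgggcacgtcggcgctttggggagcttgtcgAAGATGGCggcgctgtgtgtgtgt
MRPL52: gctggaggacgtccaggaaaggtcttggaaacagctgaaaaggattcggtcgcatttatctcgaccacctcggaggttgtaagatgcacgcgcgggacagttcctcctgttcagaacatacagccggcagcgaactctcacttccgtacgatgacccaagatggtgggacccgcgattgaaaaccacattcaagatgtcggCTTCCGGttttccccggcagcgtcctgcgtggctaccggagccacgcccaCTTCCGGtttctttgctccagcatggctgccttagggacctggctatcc
MRPS18A: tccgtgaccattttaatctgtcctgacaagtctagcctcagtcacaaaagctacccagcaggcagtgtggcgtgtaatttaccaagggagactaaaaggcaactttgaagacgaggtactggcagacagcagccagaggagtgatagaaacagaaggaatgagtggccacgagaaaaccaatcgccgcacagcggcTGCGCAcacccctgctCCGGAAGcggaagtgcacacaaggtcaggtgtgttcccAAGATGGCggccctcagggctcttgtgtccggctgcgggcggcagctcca
MRPS18B: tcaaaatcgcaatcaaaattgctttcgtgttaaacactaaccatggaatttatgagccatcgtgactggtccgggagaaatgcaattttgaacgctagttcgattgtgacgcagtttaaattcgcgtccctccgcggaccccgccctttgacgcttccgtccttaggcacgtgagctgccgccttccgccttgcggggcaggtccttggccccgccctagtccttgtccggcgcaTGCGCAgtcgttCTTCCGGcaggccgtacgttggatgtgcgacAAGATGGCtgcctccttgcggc

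The 3 motifs were also counted by how the genes stood between vehicle and WT. Among genes with a promoter sequence, 28 had vehicle libraries above WT without overlap, and 17 of them held at least 1 of the 3 motifs, as did 21 of the other 34. NRF1 core letters were in 5 of the 28 and 10 of the 34, ETS letters in 11 and 9, and YY1 letters in 6 and 9. This is a description of 62 sequences with no test. Transcripts of the factors themselves were measured too: NRF1 was at 10.1 and 9.89 CPM in WT, 10.8 and 6.59 CPM with vehicle, and 10.2 and 10.6 CPM with AC1903. YY1 was at 16.7 and 12.4 CPM in WT, 25.3 and 22.1 CPM with vehicle, and 23.4 and 19.0 CPM with AC1903, so all transgenic libraries lay above WT, with a vehicle minus WT change of 0.70 (edgeR adjusted p = 0.23). GABPA differed by -0.15 and PPARGC1A, a coactivator of mitochondrial biogenesis, by 1.35 (edgeR adjusted p = 0.335), its highest value of 16.3 CPM being that of vehicle replicate 2.

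Other genes of mitochondrial gene expression gave a mixed picture beside the ribosomal proteins. For vehicle against WT, edgeR called none of the genes in any of the following lists, and counts are of fitted levels. Of 6 mitochondrial ribosomal proteins with other symbols, 5 were higher, at a median of 0.25: PTCD3 by 0.70, ICT1 by 0.48, GADD45GIP1 by 0.33, CHCHD1 by 0.16 and DAP3 by 0.08, and AURKAIP1 by -0.00542. Among 16 translation factors 13 were higher, at a median of 0.19, with TUFM, the elongation factor that delivers aminoacyl-tRNA, at 57.4 and 57.7 CPM in WT, 78.8 and 92.6 CPM with vehicle, and 75.3 and 63.4 CPM with AC1903. The 24 mitochondrial aminoacyl-tRNA synthetases had 18 higher and a median of 0.22. In contrast 24 genes of ribosome assembly, such as the GTPases MTG1 and ERAL1, had 12 higher and 12 lower and a median of 0.03. The 7 genes of mitochondrial transcription had 3 higher and 4 lower and a median of -0.01.

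Transcripts of the proteins that mitochondrial ribosomes make, and of their nuclear-encoded partners, had larger medians than the ribosomal proteins for vehicle against WT. The 12 mitochondrially encoded mRNAs all had a higher fitted level in vehicle than in WT, at a median of 0.58, but their pooled standard deviation between replicates was 0.419 and the vehicle libraries stood at 0.07 and 0.98 above the WT mean. Nuclear-encoded respiratory chain genes were higher in 79 of 83, at a median of 0.44. DESeq2 called 13 of them, where it called 4.22% of all genes with an adjusted p. With AC1903 against vehicle, 79 of the 83 were lower, at a median of -0.32. All 12 mitochondrial mRNAs also had a lower fitted level, at a median of -0.08, but none was lower without overlap. Relative to the WT mean their AC1903 values were 0.51 and 0.49, between those of vehicle replicates 1 and 2. Cytosolic ribosomal proteins did not share the pattern for vehicle against WT. Of 73, 19 were higher and 54 lower, where 46.6% of all genes were higher, at a median of -0.12. Only 6 were lower without overlap, where 23.4% of all genes were. Their median level was -0.14 and -0.10 in vehicle, inside the WT range of -0.20 to 0.20. With AC1903 against vehicle 67 of 73 were lower, where 52.1% of all genes were, at a median of -0.21. The difference between these lists and the mitochondrial ribosomal proteins was not tested.

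**Figure D4:**
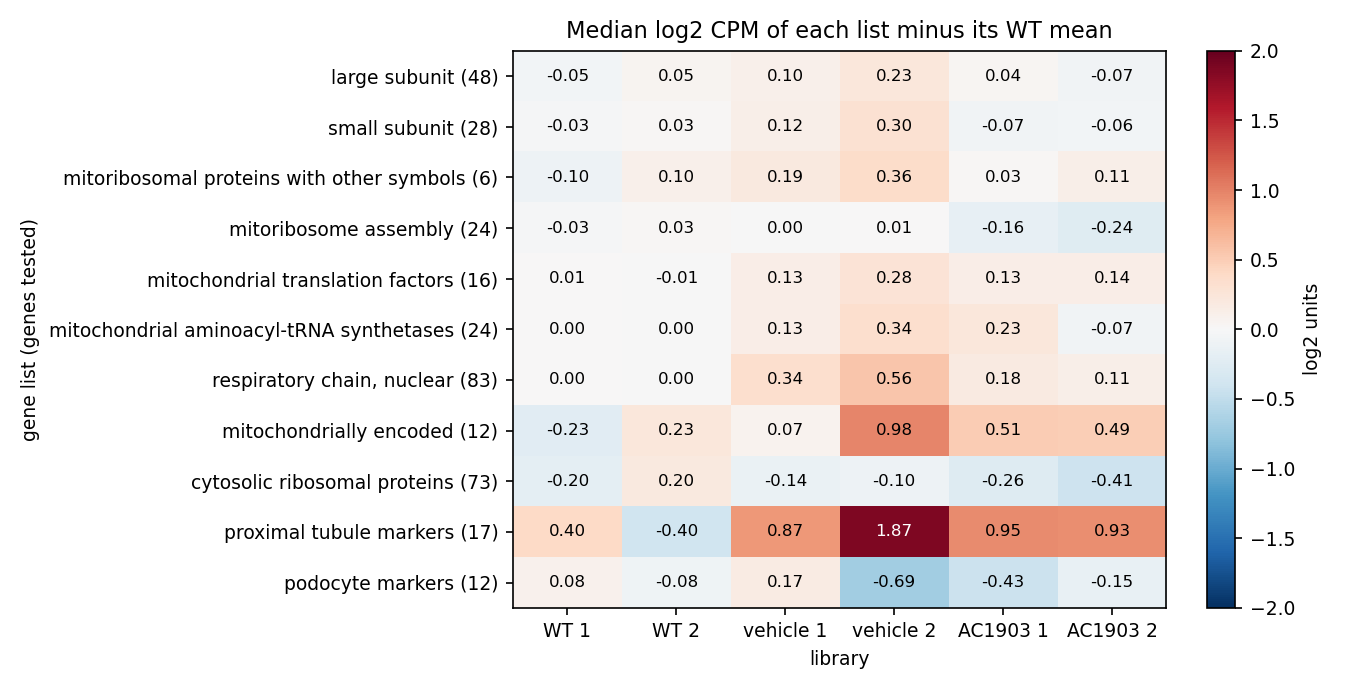
Median log2 CPM of each gene list in each library minus its mean in WT, with the number of genes tested in brackets; red is above and blue below WT, on a scale from -2 to 2. Both subunits are highest in the vehicle libraries (0.10 and 0.23; 0.12 and 0.30), and vehicle replicate 2 also has the highest proximal tubule value, 1.87, and the lowest podocyte value, -0.69.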

How the data were processed

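Polyadenylated RNA of isolated glomeruli was sequenced from 6 libraries, 2 per group, with a stranded kit per the labels' protocols. Groups, replicate numbers and ages came from the labels. The authors deposited expected counts per gene, and STAR 2.5.2b, RSEM 1.3.0 and Rnor_5.0 were used per the submitters' processing notes. The sources used here name neither the annotation release nor the strand setting. The authors' log2 fold changes and p-values were deposited for the vehicle against WT and AC1903 against vehicle comparisons, per the file headers and the tool behind them is not named there. Symbols came from those tables only.

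Expected counts were rounded, filtered with filterByExpr and TMM-scaled, and tested on all 6 libraries with edgeR 4.0.16 in R 4.3.3 (quasi-likelihood, two-sided, Benjamini-Hochberg adjustment over 13426 genes, threshold 0.05), with 3 residual degrees of freedom. The script was tested on simulated data. DESeq2 1.42.0, limma-voom (limma 3.58.1), other scalings, filters, covariates and leaving out each library were alternatives. Members and lists were chosen with earlier results of these data known. Named genes were, by rule, those past the threshold or, where none passed, the 4 of smallest p in each direction per subunit and comparison, plus a fixed set of genes of known role. The text gives part of them. A further part of the rule, by coding length, could not be applied without protein lengths. The genes on overlap, fractional or low counts, and the promoters shown, were chosen after their values were seen. Depth of 12325515 to 36026772 counts puts the limit of a count of 0 (3 counts) at 0.0833 to 0.243 CPM, for counting error only. P-values set each difference against the spread between these libraries, which the fits estimate in part over all genes. Whether that is the spread between single rats is not known, as pooling is not stated.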

Additional observations from a re-analysis of the deposited data

How the results depend on the processing

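The calls and medians were recomputed with DESeq2, limma-voom, DESeq2 size factors, upper-quartile scaling, without mitochondrially encoded genes, with no filter or a filter of 5 CPM in 2 libraries, on only the groups compared, with a replicate block, with age or proximal tubule level as covariate, and without each library. No setting moved the median of all genes by over 0.1 on the log2 scale. For vehicle against WT, edgeR's 0 called members became 1 with DESeq2 (MRPS34) and 2 with no filter (MRPL15 and MRPS34), and 0 to 2 when 1 library was left out, the 2 being MRPL15 and MRPS34 without vehicle replicate 1. In the other comparisons every setting gave 0. The small subunit median for vehicle against WT was 0.07 with the proximal tubule covariate. It was 0.12 to 0.29 with 1 library left out, lowest without vehicle replicate 2. The large subunit median was 0.09 to 0.22 with 1 library left out, and 0.10 without vehicle replicate 2. For AC1903 against vehicle the medians ranged from -0.27 to -0.11 (large) and -0.32 to -0.17 (small) with 1 library left out, where the lone library of a group is assumed to vary like the others. The count of members higher in vehicle than WT was 53 to 66 over the other settings and 54 to 69 with 1 library left out, and that of members lower with AC1903 than vehicle 61 to 68 and 58 to 69. Age as a covariate gave 56 higher for vehicle against WT. The replicate numbers did not pair the libraries (correlations of same-numbered deviations -0.0203, -0.0409 and 0.00458), and with the replicate block the counts were 64, 66 and 43 with 0 called members, as without it. Sign was followed only for the genes of smallest p in each comparison, and it changed in 17 recomputed cases. With the proximal tubule covariate these cases were MRPL17 at 0.09 (vehicle against WT) and, for AC1903 against WT, MRPL15 at -0.02, MRPL51 at -0.03, MRPS36 at -0.00972 and MRPS33 at 0.04. Other members were not followed singly, and with that covariate the count higher in vehicle than WT was 53 in place of 64. MRPS23, AC1903 against vehicle, was -0.02 with no filter, -0.01 with the 5 CPM filter and -0.07 to 0.10 with 1 library left out. With 1 library left out, vehicle against WT ran from -0.43 to 0.03 for MRPL9, -0.64 to 0.15 for MRPL42, -0.22 to 0.07 for MRPL17 and -0.30 to 0.04 for MRPS5, and AC1903 against vehicle from -0.04 to 0.50 for MRPL46, -0.05 to 0.42 for MRPL9 and -0.02 to 0.17 for MRPS22. Depth limits MRPS10 and MRPS6, whose lowest counts were 13 and 20.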
